A study of Mus musculus with 2 samples.

Results

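The genes described here are the CREB transcription factors and the coactivators they recruit, in B-ALL, a leukaemia of immature B cells, of the mouse. They were 10 genes chosen by name: Creb1, Atf1 and Crem, the CREB-regulated coactivator genes Crtc1, Crtc2 and Crtc3, the acetyltransferase genes Crebbp and Ep300, and the more distant relatives Creb3 and Crebl2. All non-control probes whose RefSeq accession maps to them were taken, which gave 17 probes of 39429 on the array and 10 genes of 20659 with a symbol. The leukaemia cells came from bone marrow, with an age of 8 weeks on the labels, and were sorted on SoNar, a fluorescent sensor of the cytosolic NADH/NAD+ ratio, by the ratio of its signal under violet to that under blue excitation. Each of both populations, SoNar-high and SoNar-low, was hybridised to 1 one-colour Agilent array; the sample titles call them N-myc-high and N-myc-low. The labels used here give no strain, no transforming gene, no number of mice and no treatment for either population. With 1 array per population there is no replicate check, and no p-value was possible.

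CREB proteins bind the cAMP response element (CRE) as dimers through a basic leucine zipper. Protein kinase A, which cAMP releases from its regulatory subunits, and several calcium- and stress-activated kinases phosphorylate CREB1, ATF1 and CREM in the kinase-inducible domain, which then binds the acetyltransferases CBP (Crebbp) and p300 (Ep300). The CRTC proteins are a separate switch: salt-inducible kinases keep them in the cytoplasm bound to 14-3-3 proteins, and calcineurin releases them to the nucleus, where they bind the leucine zipper of CREB. In B-cell progenitors CREB overexpression is known from leukaemia, and CREBBP is a recurrent target of mutation in relapsed B-ALL.

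The main result is that the family did not move one way, and neither did the measured genes as a whole. Of the 10 genes, 7 had at least 1 probe well above background on both arrays, and these 7 ran from Creb3 at 0.81 to Ep300 at -0.73 (SoNar-high minus SoNar-low, log2 of the signal scaled to the 75th percentile of its array). Their median was 0.21, against 0.22 for the median of 10517 genes measured on both arrays. Of the 7, 4 lay above 0 and 3 below, where 66.9% of all measured genes lay above 0, with quartiles of -0.15 and 0.52. None of the 7 was 2-fold apart in either direction, where 6.79% of all measured genes were (2.41% higher and 4.38% lower on SoNar-high). Crem cleared the background on SoNar-low alone, Crebl2 on neither array, and the single Crebbp spot on the SoNar-low array carried a quality flag. With that flagged spot kept, Crebbp was the only gene of the 10 past 2-fold, at -1.92.

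The share of 43020 non-control spots well above background was 44.8% on SoNar-high and 72.9% on SoNar-low, and the lowest such signal was 46.4 and 19.4 intensity units, so dim genes were measured on the SoNar-low array and missed on the other. Over 193 probes printed as 10 spots, the difference between 1 spot of each array had a median SD of 0.15 (log2), which covers spots on a slide and not animals or sorts. The labelled cell type was checked against 15 B-lineage markers: 10 were well above background on both arrays, from Ebf1 (0.98) to Pax5 (-0.08), while Rag1, Rag2, Igll1 and Il7r were not well above background on either. Markers of other cells differed too. The median over the measured genes was -0.43 for neutrophil (11 of 13 measured), -0.42 for monocyte and macrophage (5 of 12), -1.00 for T and NK cell (6 of 13), -1.02 for erythroid (4 of 9), -0.36 for lung (3 of 10) and 0.90 for brain markers (13 of 20). Several of the measured brain markers, Rtn1 among them, had scaled SoNar-low values under the lowest well-above SoNar-high value. For these only a positive difference was possible, and they count in the brain median. Summed over the brightest probe of each marker, the scaled signal on SoNar-high and SoNar-low was 125 and 99.2 for B-lineage, 111 and 139 for neutrophil, 1.67 and 2.35 for monocyte and macrophage, 6.44 and 7.33 for T and NK cell, 57.5 and 33.9 for erythroid, 19.8 and 18.6 for lung and 13.7 and 10.5 for brain markers. Single genes carried some of these sums. Without Hemgn (55.7 and 30.1) the erythroid sum was 1.76 on SoNar-high and 3.83 on SoNar-low, and without Lamp3 (19.2 and 14.1) the lung sum was 0.604 and 4.53, so both turned direction. The part of other cells in the values below was not tested, and fewer cells of a type and less RNA per cell cannot be told apart in such bulk samples.

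**Figure D1:**
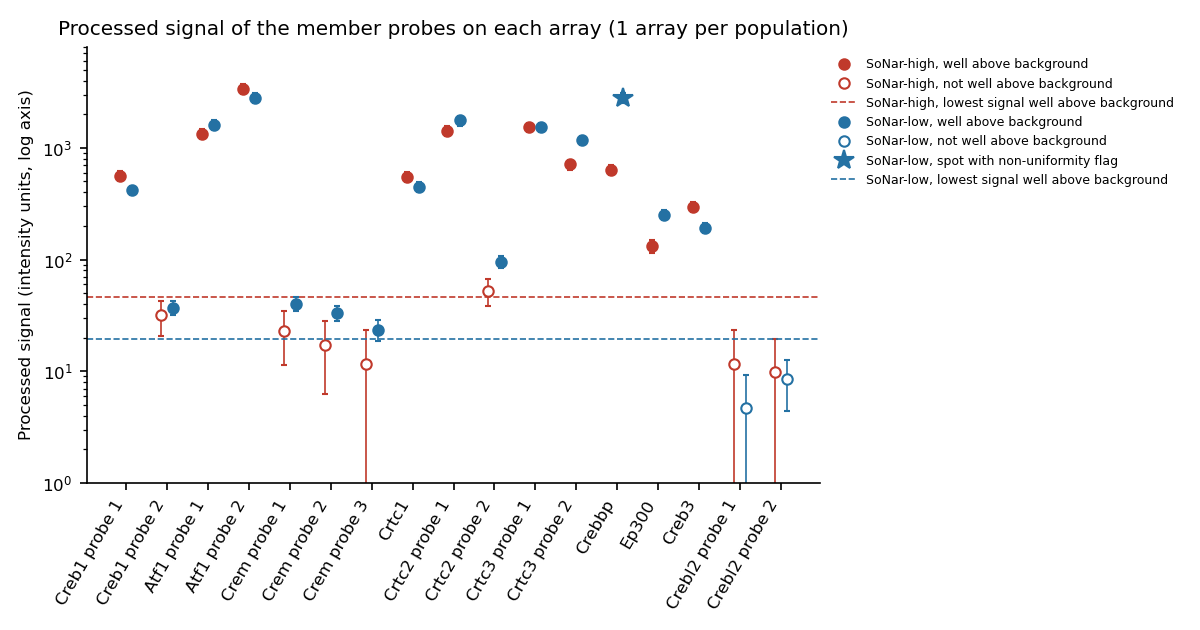
Processed signal (intensity units, log axis) of the 17 member probes on the SoNar-high (red) and SoNar-low (blue) array; probes of a gene are numbered in the order of their identifiers, bars are the scanner software's signal error of the spot and dashed lines the lowest signal well above background. The 3 Crem probes and both Crebl2 probes lie near or under those lines, and the flagged Crebbp spot, a star at 2789 units, lies above its SoNar-high signal of 640 units.

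Creb1, the founding member and the best-known cAMP-responsive factor, was higher on the SoNar-high array by its 1 measured probe. This probe, A_52_P517730, gave 558 ± 56.9 intensity units on SoNar-high and 418 ± 42.0 on SoNar-low, where each error is the scanner software's estimate for 1 spot. After scaling, the signals were 1.37 and 0.888 times the 75th percentile of their arrays, a difference of 0.62 ± 0.21 (log2, error propagated from both spots) or 1.54-fold. It stood 1.92 of its own errors above the median gene, and 82.3% of 17184 measured probes had a lower value. The other Creb1 probe, A_55_P2114427, read 31.8 ± 11.0 on SoNar-high, not well above background, and 37.2 ± 5.56 on SoNar-low. No fold was given for it, because its SoNar-low value lay under the scaled detection floor of the SoNar-high array (0.0791 against 0.113). The gain of Creb1 thus rests on 1 of its 2 probes and was smaller than 2-fold.

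Atf1, which pairs with CREB1 and binds the same element, was measured by 2 probes that did not give the same direction. Probe A_55_P2159994 gave 3380 ± 338 units on SoNar-high and 2792 ± 279 on SoNar-low, a difference of 0.48 ± 0.20. Probe A_52_P228079 gave 1339 ± 134 and 1598 ± 160, a difference of -0.05 ± 0.20. Both read the same RefSeq transcript, and their mean of 0.21 was the same as that of the median gene to within 0.01 on the log2 scale. A gap as wide as theirs, 0.53, was common: 41.3% of 2021 genes with 2 measured probes had one at least as wide, and 42.7% had probes on opposite sides of 0.

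Crem, whose gene also makes the inducible repressor ICER from an internal promoter, was dim. Its probe A_51_P423976 read 23.1 ± 11.7 units on SoNar-high and 40.4 ± 6.13 on SoNar-low, A_52_P460957 read 17.2 ± 10.9 and 33.4 ± 5.26, and A_55_P2044257 read 11.7 ± 11.6 and 23.6 ± 5.03. All 3 cleared the background on SoNar-low and 0 of 3 on SoNar-high. Each SoNar-low value, once scaled, lay below the SoNar-high detection floor, so no fold could be stated for Crem in either direction. This state was frequent, since of 20618 named genes 26.4% were detected with SoNar-low alone and 0.0534% with SoNar-high alone.

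Creb3, also called Luman, is a factor of the endoplasmic reticulum membrane that is cut free in the Golgi and belongs to a different branch of the family. Its probe gave 295 ± 30.9 units on SoNar-high and 193 ± 19.7 on SoNar-low, a difference of 0.81 ± 0.21 or 1.76-fold, the highest of the measured members. It lay 2.79 of its errors above the median gene, and 92.6% of measured probes were lower. Crebl2, a small CREB-like protein, had 2 probes at 11.7 ± 11.6 and 9.80 ± 9.75 units on SoNar-high and 4.66 ± 4.64 and 8.57 ± 4.14 on SoNar-low. Neither was well above background on either array, and no difference was taken.

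The 3 CRTC coactivator genes did not share a direction in the main setting. When scaled to the array median, all 3 lay above 0, with Crtc1 at 1.05, Crtc2 at 0.46 and Crtc3 at 0.41. Over all settings, Crtc1 lay above 0 in 10 of 10, Crtc2 in 1 of 11 and Crtc3 in 2 of 11. Crtc1, the form best known from neurons and as a fusion partner in salivary gland cancer, gave 548 ± 55.6 units on SoNar-high and 449 ± 45.1 on SoNar-low, a difference of 0.49 ± 0.21. Crtc2, the form that drives gluconeogenic genes in liver, gave 1421 ± 143 and 1759 ± 176 by probe A_55_P2024515, a difference of -0.11 ± 0.20. A second Crtc2 probe, A_55_P2112180, read 52.7 ± 14.3 and 95.7 ± 11.0 but was not well above background on SoNar-high. Its value was 1.58-fold lower there, a difference of -0.66 ± 0.43. This is the ratio of the 2 spots and not a bound, since the dim spot's own signal exceeded the detection floor. For Crtc2 both probes thus lay lower on SoNar-high, the bright one by less than its error.

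Crtc3, the third CRTC gene, had 2 bright probes to the same transcript that fell on opposite sides of 0. Probe A_55_P2066478 read 1530 ± 153 units on SoNar-high and 1531 ± 153 on SoNar-low, which scaling turned into a difference of 0.20 ± 0.20. Probe A_55_P2066484 read 710 ± 71.8 and 1172 ± 117, a difference of -0.52 ± 0.21 that lay 3.63 of its errors below the median gene. The probe gap was 0.72, and 27.9% of genes with 2 measured probes had a gap at least as wide. The gene mean was -0.16.

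Ep300, the gene of the acetyltransferase p300, had the lowest value of the measured members, within the signal error of the lower Crtc3 probe (gap 0.21, combined error 0.32). It read 132 ± 17.4 units on SoNar-high, 2.85 times the lowest signal well above background there, and 252 ± 25.5 on SoNar-low. Its difference was -0.73 ± 0.24, a 1.66-fold lower value on SoNar-high, 3.96 of its errors below the median gene, and 10.9% of measured probes were lower still. Crebbp had 1 probe, A_55_P1965836, with 640 ± 65.4 units on SoNar-high and 2789 ± 279 on SoNar-low, a difference of -1.92 ± 0.21 (3.79-fold lower on SoNar-high). That SoNar-low spot carried the scanner software's flag for uneven pixels, so it was left out of all counts and medians. Only 1.22% of measured probes had a lower value, and 6.83% were at least 2-fold lower. Probes with the same flag behaved differently from the rest as a group: of 339 flagged single-spot probes well above background on both arrays, 49.9% were at least 2-fold lower on SoNar-high and 2.65% at least 2-fold higher, with a median of -0.99. The median pixel signal was 628 on SoNar-high and 2664 on SoNar-low, and gave -1.91 less background and after scaling. The part of the flag in the Crebbp value was not tested.

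**Figure D2:**
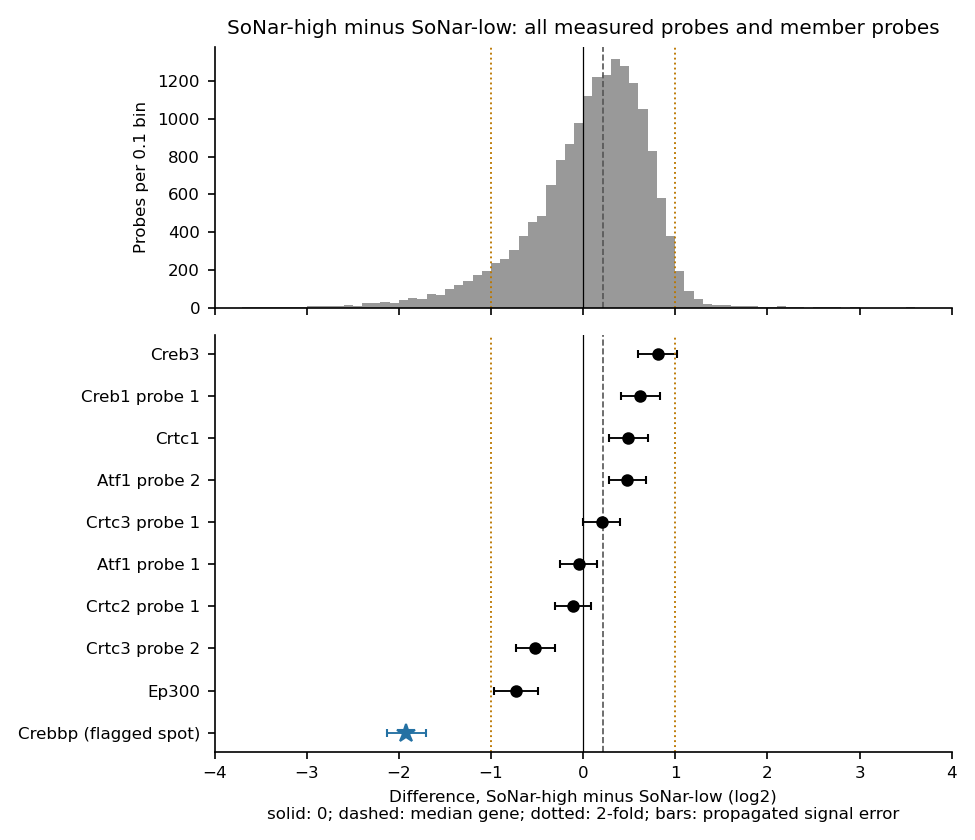
Top, number of probes per bin of 0.1 (log2) of the SoNar-high minus SoNar-low difference over 17184 measured probes; bottom, the 9 measured member probes with their propagated signal error, and the flagged Crebbp spot as a star. The 9 probes lie between -0.73 and 0.81, inside both dotted 2-fold lines, while Crebbp lies at -1.92.

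Among the 9 measured probes, 5 lay above 0 and 4 below, where 61.8% of all measured probes lay above 0. Of the 9, 4 lay above and 5 below the median gene. None was 2-fold apart, where 9.26% of all measured probes were. From the highest to the lowest the probes were Creb3, Creb1, Crtc1, Atf1 (A_55_P2159994), Crtc3 (A_55_P2066478), Atf1 (A_52_P228079), Crtc2, Crtc3 (A_55_P2066484) and Ep300. The gap between neighbours in this order was larger than their combined signal error in 1 of 8 cases, that between Crtc2 and the lower Crtc3 probe (0.41 against 0.29). The ends of the order, Creb3 and Ep300, were 1.54 apart with a combined error of 0.32.

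The direction of a member depended on the scaling where its difference was small. Scaling to the array median in place of the 75th percentile raised every gene by 0.57, and a 75th percentile taken only over probes detected in both populations moved every gene by -0.30. Across the 3 scalings Creb1 ran from 0.32 to 1.19, Creb3 from 0.52 to 1.38, Crtc1 from 0.19 to 1.05 and Ep300 from -1.02 to -0.16, each on one side of 0. Atf1 (from -0.08 to 0.78), Crtc2 (from -0.40 to 0.46) and Crtc3 (from -0.46 to 0.41) changed sign. Under median scaling Creb1, Crtc1 and Creb3 passed 2-fold, but so did 33.5% of all measured genes, and 96.1% of the genes past 2-fold were then higher on SoNar-high, against 35.4% in the main setting. Under the other scaling Ep300 passed 2-fold, as did 8.67% of all measured genes, and 6.69% of the genes past it were higher; that share was 23.1% with normexp background correction, 47.1% with quantile normalization and 52.4% in the authors' deposited values. Relative to the median gene, which moves with the scaling, the members stood at 0.59 for Creb3, 0.40 for Creb1, 0.26 for Crtc1, -0.01 for Atf1, -0.33 for Crtc2, -0.38 for Crtc3 and -0.95 for Ep300. These values changed with other steps of the processing. Over 7 alternatives the measured probe of Ep300 ran from -0.95 to -0.67 and that of Crtc2 from -0.56 to -0.21. The probe of Creb3 ran from 0.52 to 0.78, that of Creb1 from 0.26 to 0.52 and that of Crtc1 from 0.21 to 0.39.

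**Figure D3:**
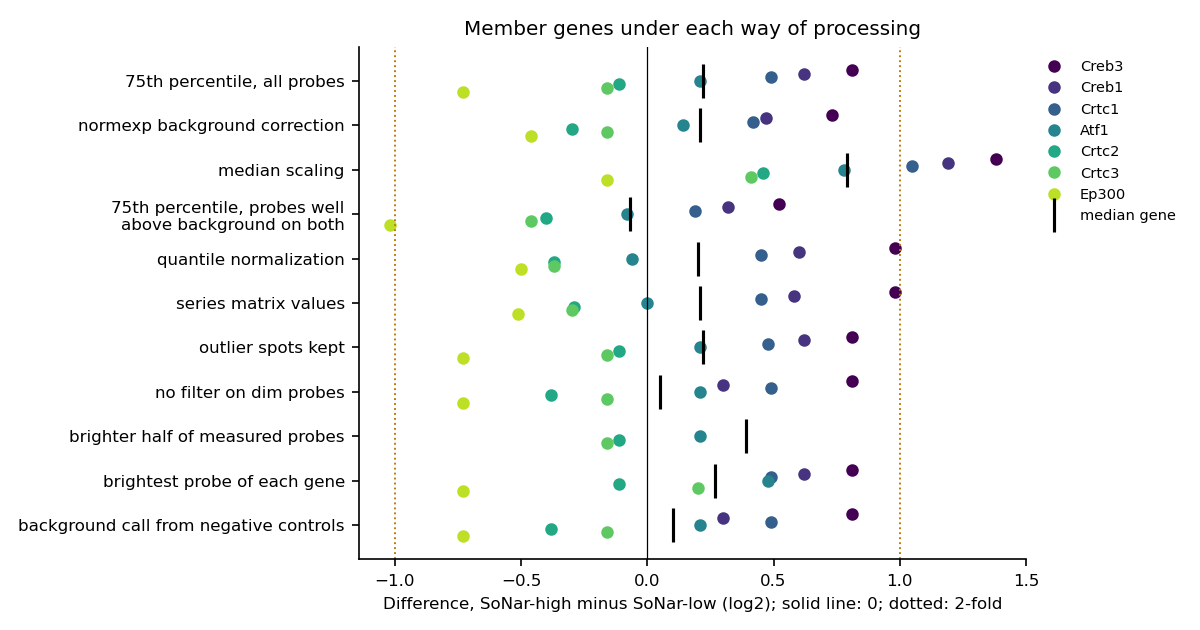
SoNar-high minus SoNar-low difference (log2) of the 7 measured member genes under the main setting, in the top row, and 10 alternatives; the black bar is the median over all measured genes of that setting. Creb3, Creb1 and Crtc1 lie right of 0 and Ep300 left of 0 in every row that holds them, while the row restricted to brighter probes holds only Atf1, Crtc2 and Crtc3.

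The genes around the CREB factors were taken from 6 lists of 143 genes in all, of which 4 stand on more than 1 list. Upstream, the list of cAMP and protein kinase A genes had 21 of 33 genes measured and a median of 0.13; 0 genes were higher by 2-fold or more and 2 were lower by as much, which is 9.52% of the list past 2-fold beside 6.79% of all measured genes. The 2 were Prkaca, the main catalytic subunit of protein kinase A (-1.70, with scaled signals of 0.351 on SoNar-high and 1.14 on SoNar-low), and Pde3a, a phosphodiesterase that degrades cAMP (-1.17). Highest were Prkar2b, a regulatory subunit that holds the kinase inactive (0.72, with 3 probes from 0.60 to 0.86), and the kinase anchor gene Akap7 (0.65). Prkacb, which encodes the other common catalytic subunit and was picked out after its values were seen, had probes at -1.10 and 0.81.

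For kinases and phosphatases that act on CREB itself the median was 0.44; 24 of 27 were measured, 19 above and 5 below the median gene. Past 2-fold were 2 higher and 0 lower (8.33% of the list, beside 6.79% of all measured genes). They were Camk4, the calmodulin kinase that phosphorylates CREB in the nucleus of lymphocytes and neurons (1.46), and Camk2g, a calmodulin kinase II subunit (1.06). Camk4 was dim, with scaled signals of 0.172 on SoNar-high and 0.0627 on SoNar-low against floors of 0.113 and 0.0413. Its SoNar-low value lay under the SoNar-high floor, so it could be measured on both arrays only with a higher SoNar-high value. Lowest were Camk2a, the neuronal subunit (-0.33), and the mitogen- and stress-activated kinase gene Rps6ka4 (-0.01). Camk2a also stands on the brain marker list, of which 6 of 13 measured genes were higher on SoNar-high by 2-fold or more and 1 was lower, from Rtn1 (2.93) to Snap25 (-1.04). Rtn1 had a SoNar-low value of 0.0670, under the SoNar-high floor. So had Cck (0.0678), Cpe (0.0559) and Eno2 (0.109), picked out after their values were seen. Like Camk4, these brain markers could be measured on both arrays only with a higher SoNar-high value. The part of brain cells in the kinase values was not tested.

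Of the genes that control CRTC proteins, all 20 were measured, with a median of 0.37 and 0 past 2-fold either way. Of the 20, 13 lay above and 7 below the median gene (0.22), beside 6.79% of all measured genes past 2-fold. Sik3, a salt-inducible kinase, was highest (0.90, probes at 0.84 and 0.95). Mark2, a kinase that also phosphorylates CRTC2 (-0.89), and Ppp3cb, a catalytic subunit of calcineurin (-0.72), were lowest. The other catalytic subunit genes Ppp3ca (0.62) and Ppp3cc (0.64) and the regulatory subunit gene Ppp3r1 (0.79), chosen after their values were seen, lay on the opposite side of 0 from Ppp3cb.

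Among partners of CBP and p300 and other acetyltransferases, 16 of 18 genes were measured, with a median of 0.29 and 0 past 2-fold. Of the 16, 8 lay above and 8 below the median gene (0.22), beside 6.79% of all measured genes past 2-fold. Ncoa2, a nuclear receptor coactivator that binds CBP (0.99), and Kat6a, the MOZ acetyltransferase gene (0.63), were highest, and Cited2, which competes for a CBP domain (-0.34, probes at -0.82 and 0.14), and Kat6b (-0.21) lowest. The list of related factors, mostly leucine zipper proteins, had 11 of 16 genes measured, with a median of 0.35 and 0 past 2-fold. Of the 11, 6 lay above and 5 below the median gene (0.22), beside 6.79% of all measured genes past 2-fold. Highest were Crebzf (0.64) and Creb5 (0.59), and lowest Atf6b (-0.15) and Creg1 (-0.16). Creg1, which counts in these values, is not a leucine zipper factor. By gene mean, the lowest values of both lists lay above that of Ep300, while the lower Cited2 probe lay below it.

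**Figure D4:**
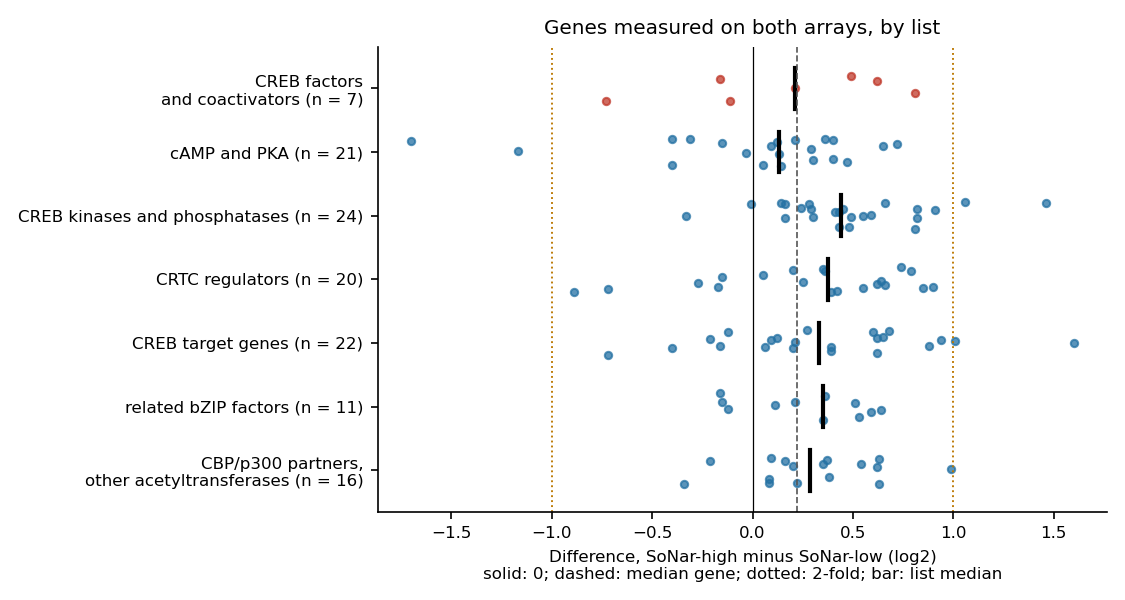
SoNar-high minus SoNar-low difference (log2) of each gene measured on both arrays, for the CREB factors and coactivators (red) and 6 lists around them (blue); the black bar is the list median, and genes on 2 lists are drawn in both. List medians lie between 0.13 and 0.44, around the median gene at 0.22.

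Downstream, a list of 33 genes known as CREB targets had 22 measured, with a median of 0.33, 2 at least 2-fold higher and 0 lower (9.09% of the list, beside 6.79% of all measured genes); 12 lay above and 10 below the median gene. Ppargc1a, a coactivator of mitochondrial biogenesis, was highest at 1.60, on a dim probe with scaled signals of 0.163 and 0.0539. Ccnd1, which encodes cyclin D1, followed at 1.01 on a bright one (13.5 on SoNar-high and 6.72 on SoNar-low). The SoNar-low value of Ppargc1a lay under the SoNar-high detection floor of 0.113. It could thus be measured on both arrays only with a higher SoNar-high value. Another 8 target genes were detected with SoNar-low alone and 0 with SoNar-high alone, and no difference was taken for them. Th, the tyrosine hydroxylase gene (-0.72), and Pde4b, a phosphodiesterase gene (-0.40, probes at -0.76 and -0.03), were lowest. The classical immediate targets, picked out after their values were seen, stood at 0.88 for Nr4a1, 0.65 for Per1, 0.27 for Fos, 0.12 for Fosb and -0.21 for Junb. The list was made of known targets, so its counts describe these arrays and are no measure of CREB activity.

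Promoter sequences from RefSeq (GRCm38.p6, 300 bases around each start) show the element in such targets and whether the factor genes carry the element themselves. The full element TGACGTCA, which reads the same on both strands, was searched for with its half-site TGACG on both strands; a full element holds the half-site on each. Of 32851 promoters in the table, 1.79% held the full element and 20.8% a half-site. Among 41 promoters of the target list the shares were 12.2% and 58.5%. The half-site was also frequent in other lists, with 78.6% of 14 promoters of CRTC regulators, 52.4% of 21 of related factors and 41.4% of 29 of CREB kinases and phosphatases. It was less so in 38.9% of 18 of CBP and p300 partners and 27.9% of 61 of cAMP and protein kinase A genes. Counted by gene, of 8478 measured genes with a promoter, 314 had the full element and 2715 only a half-site. A gene can have several promoters, so these counts cannot be set against the shares of promoters. A promoter was available for 7 of the 10 member genes, so Crem, Crtc2 and Crebl2 were not searched. Of these 7 promoters, 0 had the full element, and that of Atf1 alone had a half-site. The stretch of the Atf1 promoter and those of the 3 measured target genes with a full element are printed 5′ to 3′ along the gene, with the motif in capitals; Sst, where the element was first described, is added for comparison.
Atf1, chr15:100227749-100227793, plus strand: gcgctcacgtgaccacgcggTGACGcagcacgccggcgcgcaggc
Btg2, chr1:134079294-134079341, minus strand: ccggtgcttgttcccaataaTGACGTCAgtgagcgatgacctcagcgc
Dusp1, chr17:26508588-26508635, minus strand: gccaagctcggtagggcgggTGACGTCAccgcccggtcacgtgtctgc
Th, chr7:142900013-142900060, minus strand: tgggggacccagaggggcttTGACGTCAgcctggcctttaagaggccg
Sst, chr16:23890865-23890912, minus strand: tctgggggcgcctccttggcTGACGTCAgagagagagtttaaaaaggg

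The 3 measured genes with this element did not move together. Btg2, an antiproliferative gene, stood at 0.39, Dusp1, a phosphatase of MAP kinases, at 0.21, and Th at -0.72, while Sst, the somatostatin gene, was detected with SoNar-low alone. Over all genes with a promoter in the table, 314 measured genes with a full element had a median of 0.25, 2715 with only a half-site one of 0.27 and 5449 with neither one of 0.19. At least 2-fold apart were 6.69%, 5.16% and 7.36% of them, in the same order, beside 6.63% of all 8478. Genes with a full element thus lay within 0.03 (log2) of the median of those 8478 genes, 0.22. A match of letters is a description and not evidence that CREB binds there.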

How the data were processed

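Total RNA of each population was labelled with Cy3 and hybridised to 1 array, per the labels' protocols. The authors deposited scanner files with 1-colour intensity values per spot from Agilent Feature Extraction 11.0.1.1, per the file headers (the submitters' processing notes name version 9.1); the processed signal is background-subtracted and not scaled between arrays. A value table by the authors is on the log2 scale, with a median of 5.90 in both columns; its rank order was that of the scanner signals (Spearman's rho 1.0000 and 0.9998), with the same direction, and its normalization is not given in the sources used here. Control spots and spots flagged as non-uniform (1 and 350) or as population outliers (189 and 156 on SoNar-high and SoNar-low) were left out, and repeated spots were averaged as log2 values. Log2 signals minus the array's 75th percentile (409 and 470 units) were the main values. Accessions were matched without versions to symbols through a RefSeq table of GRCm38, which named 27115 of 39085 probes with a value on both arrays. A gene's value was the mean of its probes detected (well above background) in both populations, and genes were counted from 2-fold on, by size alone.

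The members and lists were chosen with earlier results of these data known. Named genes were all 10 members, the 2 highest and 2 lowest measured genes of each pathway list and the extremes of marker lists; other genes are named as picked out after their values were seen. One gene that this rule names is not reported here. The gene step was tested on simulated data. Alternatives were normexp on the median spot signal (offset 50), 2 other scalings, quantile normalization, the authors' value table, flagged spots kept, 3 other filters on dim probes, the brightest probe and thresholds of 1.5-fold and 3-fold. The promoter search was planned as a description. Python 3.11.15 with numpy 2.4.6, pandas 2.3.3 and matplotlib 3.10.9 was used; limma 3.58.1 ran under R 4.3.3.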

Additional observations from a re-analysis of the deposited data

Results flagged for a closer look

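Crebbp is the 1 result singled out for a closer look, because its signal lies in a spot that the comparisons leave out. With the flagged SoNar-low spot kept, its difference was -1.92 (SoNar-high minus SoNar-low, log2). On the SoNar-low array the spot read 2789 units, where the median negative control spot read 4.35. Under 5 other ways of processing, flagged spots kept, the value ran from -2.16 to -1.36, and less the median gene from -2.30 to -2.11. Of 339 flagged probes, 100 had a lower difference than Crebbp, which stood at rank 101 from the lowest. In a block of 10 rows and 5 columns either side of the spot 2.18% of 229 spots carried the flag, against 0.791% of all spots on that array. No second Crebbp probe was found, and the part of the flag in this value was not tested.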

How the results depend on the processing

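No paired analysis was possible because each population has 1 array, and no replicate could be left out. The count of genes past the threshold followed the processing. From 253 higher and 461 lower it went to 72 and 240 with normexp, 3380 and 139 with median scaling, 61 and 851 with a 75th percentile over probes detected in both populations, 1885 and 2542 with no filter on dim probes, 141 and 111 over the brighter probes (above the median of measured ones), 2145 and 1068 at 1.5-fold and 31 and 132 at 3-fold. The authors' value table gave 430 higher, and the background call from negative controls 1078 lower. The median of the 7 member genes less the median gene was -0.01; it was -0.25 with quantile normalization, -0.22 in the authors' table, 0.16 with no filter, 0.21 with the brightest probe and -0.49 over the 3 members with brighter probes. Less the median gene, the CBP and p300 partner list stood at 0.26 with the brightest probe (0.06 before), the target list at 0.26 over the brighter probes (0.11), the cAMP and protein kinase A list at 0.09 with no filter (-0.09) and the related factors at 0.31 with no filter (0.13).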
